A study of Mus musculus with 16 samples.

Results

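The levels of 40 genes of the cell cycle were followed across 16 mouse livers. The genes were chosen by name. They were G1 cyclins and their kinases (8 genes) and 9 replication licensing genes, with Cdc45 counted among them. The others were enzymes of nucleotide supply and DNA synthesis (5), mitotic cyclins, kinases and markers (13), the transcription factors E2f1 and Foxm1, and 3 brakes. Each symbol matched a row of the deposited table of 30199 genes, and all 40 averaged 10 or more normalized counts across livers, the level from which genes were tested (15263 in all).

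A cell commits to division in G1, when D-type cyclins with Cdk4 or Cdk6, and then E-type cyclins with Cdk2, phosphorylate the retinoblastoma protein and release E2F transcription factors. E2F targets load the MCM helicase onto replication origins, which is called licensing, and supply deoxynucleotides. Cdc45, counted here with the licensing genes, acts on the loaded helicase after licensing. Later genes, many of them driven by FoxM1 together with the MuvB complex, run mitosis. Adult hepatocytes are mostly quiescent and re-enter the cycle after injury or loss of tissue. The p53 target Cdkn1a encodes p21, an inhibitor of cyclin-dependent kinases.

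The livers came from female mice at 5 months of age, 4 per genotype and 1 library per mouse. Beside wild type there were mice with a heterozygous deletion of Ncoa5 (Ncoa5+/-), of Tip30 (Tip30+/-) or of both (Ncoa5+/-Tip30+/-). Ncoa5 encodes a nuclear receptor coregulator, and Tip30 is another name for Htatip2. Strain and allele design are not stated in the sources used here. Replicates are numbered in accession order and pair nothing. The labels name separate mice, so p-values measure the spread between mice. A mouse tag, a number in the sample titles that ran from 4184 to 4530, was the other label that set livers apart, and what it stands for is not given. Tags under 4300 belonged to 2 wild-type, 2 Ncoa5+/-, 3 Tip30+/- and 2 Ncoa5+/-Tip30+/- livers.

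Libraries held 24740706 to 37939978 reads assigned to genes. All 10 hepatocyte markers were present, with summed levels of 2385180 to 3806010 normalized counts, against 61.1 to 382 for 12 markers of T and NK cells. Htatip2 was lower in all 8 livers labelled with the Tip30 deletion (685 to 1088 normalized counts) than in the other 8 (1835 to 2910). Ncoa5 itself was at 339 to 411 normalized counts in Ncoa5+/- livers and 380 to 480 in wild type, so its reads do not check the Ncoa5 label. A set of 4 livers stood apart by Zhx2, a liver transcription repressor gene, at 8.77 to 26.3 normalized counts against 167 or more elsewhere. They were wild type 1 and 2 and Ncoa5+/- 1 and 4. Without them wild type keeps tags 4361 and 4382 and Ncoa5+/- keeps 4254 and 4358. Fits without these livers are thus not balanced by tag range. In whole liver, fewer cells of a type and less RNA per cell cannot be told apart.

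The setting for these genes was a strong rise of Cdkn1a in every liver labelled with the Ncoa5 deletion. Cdkn1a stood at 117, 130, 62.7 and 73.1 normalized counts in wild type, at 3382, 1434, 1785 and 2244 in Ncoa5+/-, at 69.1, 70.3, 49.6 and 49.2 in Tip30+/- and at 1233, 2666, 4893 and 1006 in Ncoa5+/-Tip30+/-. The 8 livers with the deletion did not overlap the 8 without it. Over both Tip30 genotypes the log2 difference was 4.79 ± 0.31 (SE, limma on log2 of the value plus 1), a 27.6-fold higher level (adjusted p = 6.66e-07). A list of 21 p53 target genes was written from general knowledge, with earlier results of these data known. Of these, 16 were called higher and 2 lower in this comparison (adjusted p under 0.05), where 7.89% of all genes were called. The median log2 difference of the list was 1.40, against -0.01 over all genes tested.

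**Figure D1:**
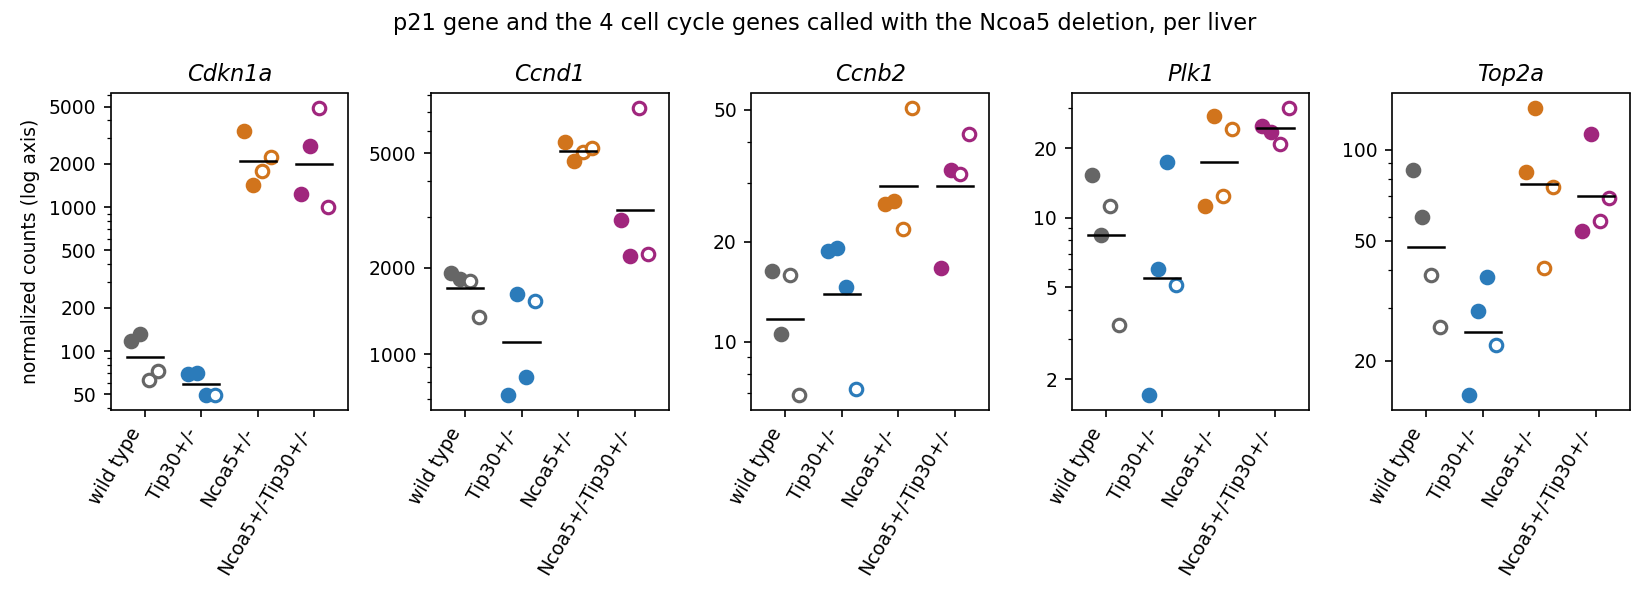
Normalized counts (log axis) of Cdkn1a and of the 4 cell cycle genes called with the Ncoa5 deletion, 1 point per liver, by genotype. Filled points are mice with tags under 4300, open points the others, and black bars are geometric means of 4 livers. Cdkn1a and Ccnd1 separate the 8 livers with the Ncoa5 deletion from the 8 without it, whereas Ccnb2, Plk1 and Top2a overlap.

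The question asked of the 40 genes was which of them moved in the same livers as Cdkn1a. Averaged over both Tip30 genotypes, 4 of 40 were called (adjusted p under 0.05 over all genes) between livers with and without the Ncoa5 deletion, where 7.89% of all genes were called. All 4 were higher: the G1 cyclin Ccnd1 and the mitotic genes Ccnb2, Plk1 and Top2a. Across all genes 3.94% were called higher. No licensing gene, nucleotide enzyme, transcription factor of the set or brake was called. The fitted difference was above 0 for 34 of the 40. It was above 0 for 36 in Ncoa5+/- against wild type and for 32 in Ncoa5+/-Tip30+/- against Tip30+/-. Against wild type it was above 0 for 26 in Ncoa5+/-Tip30+/- and for 8 in Tip30+/-. Over both Tip30 genotypes the median log2 difference was 0.51, against -0.01 for all genes tested. At an unadjusted p under 0.05 there were 13 genes, or 32.5% of the 40 against 26.1% of all genes. Of these 12 were higher (Ccnd1, Ccne1, Foxm1 and 9 mitotic genes), and Cdkn1b was lower. EdgeR called 5 of the 40 (the same 4 and Ccnb1), against 7.38% of all genes, and DESeq2 called 7 (these 5, Ccne1 and Mki67), against 11.8%.

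**Figure D2:**
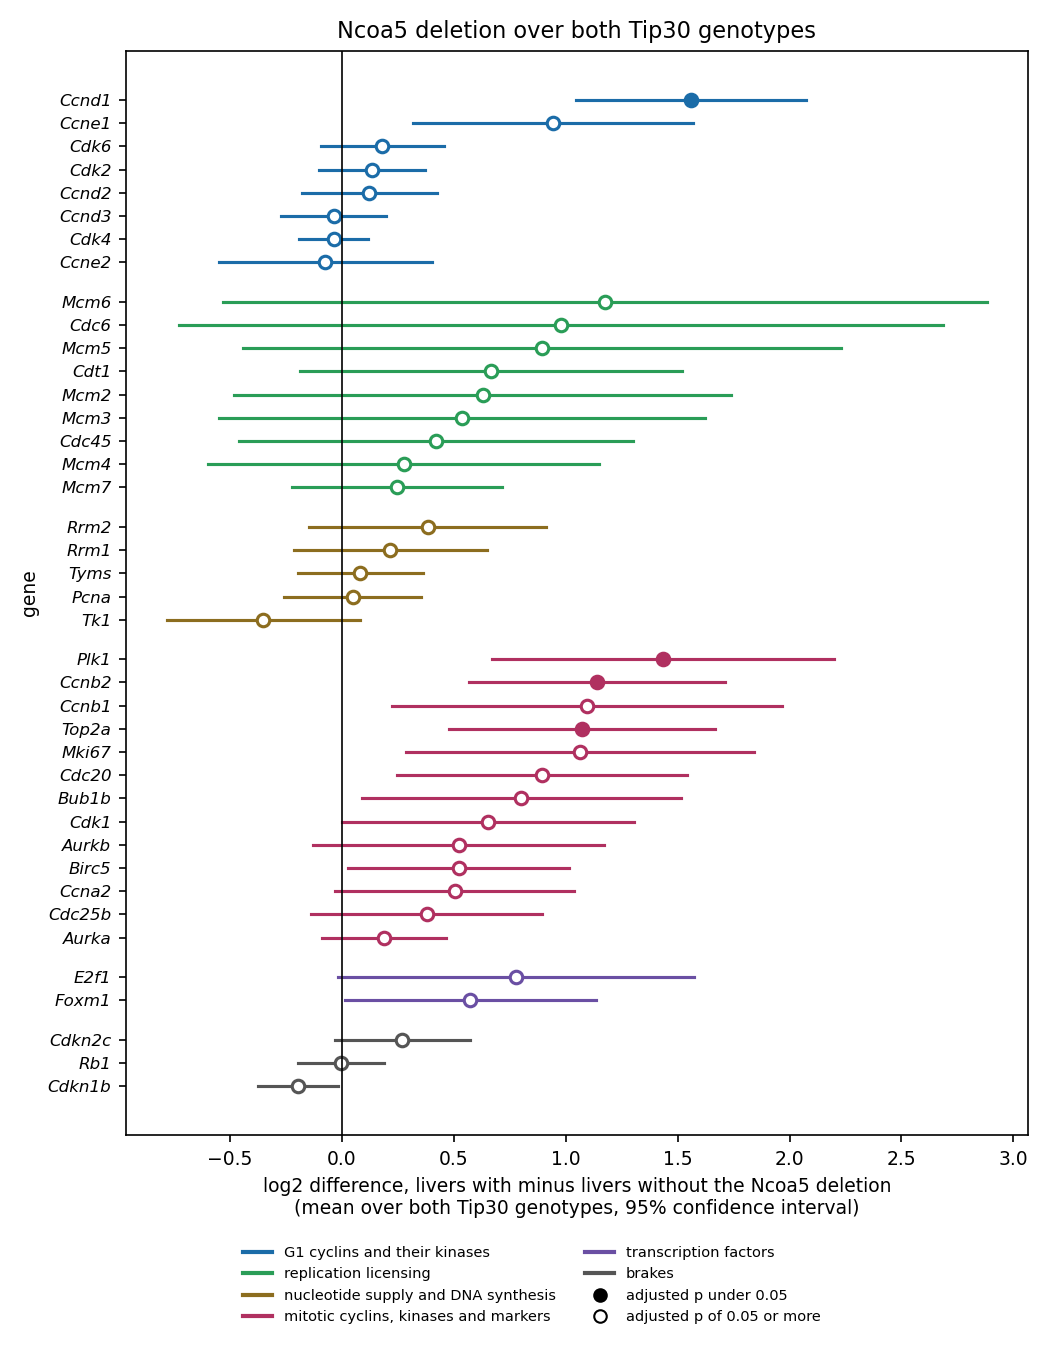
Fitted log2 difference between livers with and without the Ncoa5 deletion, averaged over both Tip30 genotypes (x axis), for each of the 40 genes (y axis), with 95% confidence intervals and colours by role. Filled points (Ccnd1, Ccnb2, Plk1, Top2a) have an adjusted p under 0.05. The 6 widest intervals are those of licensing genes (Cdc6, Mcm6, Mcm5, Mcm2, Mcm3 and Cdc45), and all 13 mitotic genes lie above 0.

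Ccnd1, which encodes cyclin D1, the partner of Cdk4 and Cdk6 in G1, moved with the label in every liver. Ccnd1 stood at 1911, 1833, 1793 and 1346 normalized counts in wild type, at 5495, 4722, 5053 and 5246 in Ncoa5+/-, at 719, 1621, 832 and 1533 in Tip30+/- and at 2938, 2189, 7208 and 2234 in Ncoa5+/-Tip30+/-. All 8 livers with the deletion lay above all 8 without it. That was true of no other gene among the 40 and of 0.786% of all genes. Ncoa5+/- livers were close to each other, while Ncoa5+/-Tip30+/- 3 stood far above the rest of its group.

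Over both Tip30 genotypes Ccnd1 was 2.94-fold higher with the Ncoa5 deletion (95% confidence interval 2.06 to 4.20, log2 1.56 ± 0.24, adjusted p = 0.00188). The call held in each of the 27 alternatives run, with adjusted p from 2.27e-10 to 0.0384, the highest without the 4 livers low in Zhx2. Within the lower mouse tags the log2 difference was 1.40 (4 livers against 5), and within the higher tags 1.56 (4 against 3).

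The pairwise comparisons of Ccnd1 were less firm. Against Tip30+/- livers the Ncoa5+/-Tip30+/- livers were 2.89-fold higher (log2 1.53 ± 0.34, adjusted p = 0.0304), and Ccnd1 was the only gene of the 40 called there, where 3.07% of all genes were called and 1.61% called higher. This call was lost without Tip30+/- 1 (log2 1.32, adjusted p = 0.0694), Tip30+/- 3 (1.39, 0.0812) or Ncoa5+/-Tip30+/- 1 (1.57, 0.0530). With both groups fitted alone (adjusted p = 0.0990), with no filter (0.0623) and without the 4 livers low in Zhx2 (0.0731) it was lost at the same log2 difference of 1.53. The other pairwise comparisons share the wild-type livers. Ncoa5+/- livers were 3.00-fold above wild type (log2 1.59 ± 0.34, adjusted p = 0.0566) and did not overlap it, and the exact 2-sided permutation test gave 0.0286, which is as low as p can go with 70 arrangements of the mice. Ncoa5+/-Tip30+/- livers were 1.87-fold above wild type (log2 0.90 ± 0.34, adjusted p = 0.143), and Tip30+/- livers were at 0.648 of wild type (log2 -0.63 ± 0.34, adjusted p = 0.732).

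The Ccnd1 gene (ENSMUSG00000070348) lies on GRCm38 chromosome 7, 144929931 to 144939925, minus strand. Of its 4709 exon bases in GENCODE M21, 1100 (23.4%) are shared with the opposite-strand gene LTO1, listed in the table under its older symbol Oraov1, and no strand marking of the libraries is stated. Oraov1 was at 551 to 730 normalized counts in Ncoa5+/- livers and 555 to 774 in wild type, with a log2 difference for the Ncoa5 deletion of -0.09 ± 0.09. Oraov1 thus did not rise beside Ccnd1.

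The other G1 genes gave no call. Ccne1, encoding cyclin E1, which opens S phase with Cdk2, came nearest: it stood at 57.3, 47.3, 19.7 and 25.8 normalized counts in wild type, at 57.4, 136, 44.8 and 54.5 in Ncoa5+/-, at 23.9, 56.2, 40.8 and 18.4 in Tip30+/- and at 69.1, 75.3, 79.7 and 37.1 in Ncoa5+/-Tip30+/-. Its groups overlapped, and the log2 difference over both Tip30 genotypes was 0.94 ± 0.30 (adjusted p = 0.0602). It passed without the 4 livers low in Zhx2 (adjusted p = 0.0493), a fit not balanced by tag range. It also passed with the mouse tag as a covariate (0.00866). Cdk6, a D-cyclin kinase, stood at 764, 702, 584 and 465 normalized counts in wild type, 647, 544, 757 and 836 in Ncoa5+/-, 489, 548, 651 and 646 in Tip30+/- and 514, 586, 848 and 791 in Ncoa5+/-Tip30+/-, and its groups overlapped (log2 0.18 ± 0.13, adjusted p = 0.399). The remaining G1 genes Ccnd2, Ccnd3, Ccne2, Cdk2 and Cdk4 had log2 differences of -0.07 to 0.13. Ccnd3, a D cyclin, was lower in all Ncoa5+/-Tip30+/- livers (958 to 1148 normalized counts) than in all wild-type livers (1202 to 1615), as were 6% of all genes in that comparison, and it was not called (log2 -0.34, adjusted p = 0.223). Cdk4, the other D-cyclin kinase, varied little, from 878 to 1221 normalized counts.

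Mitotic genes had the other 3 calls, and all 13 had a fitted difference above 0 for the Ncoa5 deletion, with a median log2 difference of 0.80. Ccnb2, encoding the mitotic cyclin B2, stood at 16.4, 10.5, 15.9 and 6.88 normalized counts in wild type, at 25.9, 26.5, 21.9 and 50.6 in Ncoa5+/-, at 18.8, 19.1, 14.6 and 7.17 in Tip30+/- and at 16.7, 32.9, 32.1 and 42.3 in Ncoa5+/-Tip30+/-. Ncoa5+/- and Ncoa5+/-Tip30+/- livers each lay wholly above wild type, but Ncoa5+/-Tip30+/- 1 was within the range of Tip30+/-. The difference over both Tip30 genotypes was 2.20-fold (95% confidence interval 1.48 to 3.28, log2 1.14 ± 0.27, adjusted p = 0.0190), and the call was lost without the 4 livers low in Zhx2 (log2 1.07, adjusted p = 0.0864).

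Plk1, the polo-like kinase that drives entry into mitosis, stood at 15.3, 8.41, 11.2 and 3.44 normalized counts in wild type, at 11.3, 27.5, 12.5 and 24.3 in Ncoa5+/-, at 1.71, 6.03, 17.5 and 5.12 in Tip30+/- and at 25.0, 23.5, 20.8 and 29.9 in Ncoa5+/-Tip30+/-. The Ncoa5+/-Tip30+/- livers lay above all wild-type and all Tip30+/- livers, whereas Ncoa5+/- livers overlapped wild type. Over both Tip30 genotypes Plk1 was 2.70-fold higher (95% confidence interval 1.59 to 4.59, log2 1.43 ± 0.36, adjusted p = 0.0255). The call was lost without the 4 livers low in Zhx2, although the difference was larger there (log2 1.66, adjusted p = 0.0583). It was also lost without wild type 4 (log2 1.25, adjusted p = 0.0526), Ncoa5+/- 2 (1.33, 0.0523) or Ncoa5+/- 4 (1.36, 0.0534).

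Top2a, the topoisomerase that untangles chromosomes before they separate, stood at 85.9, 59.9, 38.4 and 25.8 normalized counts in wild type, at 84.5, 137, 40.6 and 75.0 in Ncoa5+/-, at 15.3, 29.1, 37.9 and 22.5 in Tip30+/- and at 53.6, 113, 58.1 and 69.1 in Ncoa5+/-Tip30+/-. Ncoa5+/-Tip30+/- livers lay above all Tip30+/- livers but overlapped wild type, and the Tip30+/- livers were the lowest group. Over both Tip30 genotypes Top2a was 2.10-fold higher (95% confidence interval 1.39 to 3.18, log2 1.07 ± 0.28, adjusted p = 0.0301). This was the least stable of the 4 calls. It was lost without wild type 4 (adjusted p = 0.0623), Ncoa5+/- 1 (0.0513), Ncoa5+/- 2 (0.0593), Ncoa5+/- 4 (0.0527), Tip30+/- 1 (0.0566), Tip30+/- 4 (0.0572) or Ncoa5+/-Tip30+/- 2 (0.0709), with log2 differences of 0.93 to 1.08. It held without the 4 livers low in Zhx2 (log2 1.34, adjusted p = 0.0415), a fit not balanced by tag range.

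Within the lower and the higher mouse tags the log2 difference for the Ncoa5 deletion was 0.68 and 1.89 for Ccnb2, 1.22 and 1.71 for Plk1, and 1.07 and 1.12 for Top2a. Among mitotic genes that were not called, the proliferation marker Mki67 had a log2 difference of 1.06 ± 0.36 (adjusted p = 0.0839), the cyclin B1 gene Ccnb1 1.09 ± 0.41 (0.105) and the anaphase activator Cdc20 0.89 ± 0.31 (0.0808). The lowest was that of the Aurora kinase gene Aurka, 0.19 ± 0.13.

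Markers of T and NK cells, which can divide in the liver, moved with the same label. Of 12 such genes 10 were tested, and 7 were called higher with the Ncoa5 deletion (Cd3e, Cd3g, Cd8a, Cd8b1, Trac, Nkg7, Gzmb). Across all genes 3.94% were called higher. The median log2 difference of the 10 was 1.33. The summed level of the 12 ran from 164 to 382 normalized counts in the 8 livers with the deletion. In the 8 without it the sum ran from 61.1 to 165, and none of the 12 was at 0 in all livers. No macrophage, B cell, endothelial, neutrophil or hepatocyte marker was called, and only 3 of 8 neutrophil markers were tested. Their median log2 differences were 0.36 (macrophage), 0.34 (B cell), 0.12 (endothelial), 0.66 (neutrophil) and -0.28 (hepatocyte), so an absent call does not show an unchanged level. Collagen genes Col1a1 and Col3a1 of the stellate cell list and Spp1 of the cholangiocyte list were higher, and the erythroid gene Klf1 was lower. The part of these cells in the cyclin, kinase and topoisomerase values was not tested.

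The promoters of the called mitotic genes are shown because mitotic genes are known to share a cell cycle homology region, TTTGAA, beside CCAAT boxes. RefSeq promoter windows on GRCm38.p6 (250 bases before to 50 after the start) were at hand for 32 of the 40 genes, and Ccnd1, Ccnd2, Ccne2, Ccna2, Mcm4, Aurkb, Foxm1 and Rb1 had none. The 200 bases before the start are printed 5′ to 3′ on the gene's strand, with matches to TTTGAA and CCAAT, on either strand, in capitals. Ccnb2 spans chromosome 9, 70407692 to 70421547, Plk1 chromosome 7, 122159439 to 122169873, and Top2a chromosome 11, 98992943 to 99024189 (GRCm38, GENCODE M21). The printed bases are chr9:70421555-70421754 (minus strand) for Ccnb2, chr7:122159235-122159434 (plus) for Plk1 and chr11:99024190-99024389 (minus) for Top2a.
Ccnb2: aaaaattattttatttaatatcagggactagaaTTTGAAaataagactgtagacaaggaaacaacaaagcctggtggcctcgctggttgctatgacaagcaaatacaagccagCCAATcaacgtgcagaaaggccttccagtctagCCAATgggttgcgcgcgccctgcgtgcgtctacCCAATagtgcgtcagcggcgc
Plk1: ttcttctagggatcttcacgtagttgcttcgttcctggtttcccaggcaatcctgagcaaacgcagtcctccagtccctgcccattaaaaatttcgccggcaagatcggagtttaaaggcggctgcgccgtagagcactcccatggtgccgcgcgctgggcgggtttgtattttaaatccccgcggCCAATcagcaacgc
Top2a: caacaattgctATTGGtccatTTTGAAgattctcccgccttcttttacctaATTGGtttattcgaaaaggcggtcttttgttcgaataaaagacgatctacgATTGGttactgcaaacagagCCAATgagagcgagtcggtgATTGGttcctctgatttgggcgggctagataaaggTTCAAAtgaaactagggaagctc
TTTGAA was found in the windows of 8 of 11 mitotic genes, including these 3, and in those of 2 of 8 licensing genes, none of 5 G1 genes and 20.2% of all genes in the promoter table. In Plk1 the match lies after the start, outside the printed bases. CCAAT, on either strand, was in 23 of the 32 windows and in 41.1% of all genes. A match describes letters in the window and not a site in use.

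Replication licensing genes had the largest spread of the 6 roles by median, and their high livers came from all 4 genotypes. Their SD within genotypes ran from 0.48 (Mcm7) to 1.71 (Cdc6) on the log2 scale, with a median of 1.04, whereas the median over all genes tested was 0.257. The same measure was 0.13 to 0.30 for the 3 brakes. Mcm6, a subunit of the helicase, stood at 422, 219, 59.0 and 23.2 normalized counts in wild type, at 419, 878, 66.6 and 83.8 in Ncoa5+/-, at 23.0, 32.1, 179 and 57.3 in Tip30+/- and at 311, 345, 41.6 and 77.3 in Ncoa5+/-Tip30+/-. In 3 genotypes the first and second livers were high and the other pair low, and in Tip30+/- the third was the high one.

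Mcm5, another helicase subunit, had the same shape, at 605, 280, 120 and 64.5 normalized counts in wild type, 526, 1017, 141 and 137 in Ncoa5+/-, 54.6, 60.3, 227 and 110 in Tip30+/- and 449, 398, 88.4 and 95.9 in Ncoa5+/-Tip30+/-. Cdt1, which loads the helicase onto origins, stood at 421, 228, 107 and 101 normalized counts in wild type, 407, 815, 154 and 131 in Ncoa5+/-, 137, 117, 169 and 111 in Tip30+/- and 260, 320, 145 and 160 in Ncoa5+/-Tip30+/-. Cdc6, the other loading factor, spanned 2.58 normalized counts in wild type 4 to 187 in Ncoa5+/- 2, a 72.6-fold range. For the Ncoa5 deletion the log2 difference was 1.17 ± 0.79 for Mcm6, 0.89 ± 0.62 for Mcm5 and 0.67 ± 0.40 for Cdt1 (adjusted p = 0.369, 0.385 and 0.308). The 95% confidence interval of the Mcm6 fold, 0.692 to 7.36, leaves room for a lower level and for a large rise.

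The same 7 livers held the 7 highest values of 10 genes, namely all 9 licensing genes and Rrm1. They were wild type 1 and 2, Ncoa5+/- 1 and 2, Ncoa5+/-Tip30+/- 1 and 2 and Tip30+/- 3, whose mouse tags ran from 4207 to 4254. Tip30+/- 1 and 2, with the lowest tags (4184 and 4187), were among the lowest livers. In each of the other 3 genotypes both livers with tags under 4300 lay above both others for 15 of the 40 genes (all 9 licensing genes, Ccnd3, Cdk4, Rrm1, Rrm2, Mki67 and E2f1), and the opposite order was seen for 0. Of all 15263 genes tested, 498 (3.26%) had the order of these 15 genes and 539 the opposite order. The opposite order was thus rare among all genes as well. Of 108 other cell cycle genes 19 had the order of these 15, among them the replication genes Gins1, Gins2, Prim1, Pold1, Pole and Lig1.

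**Figure D3:**
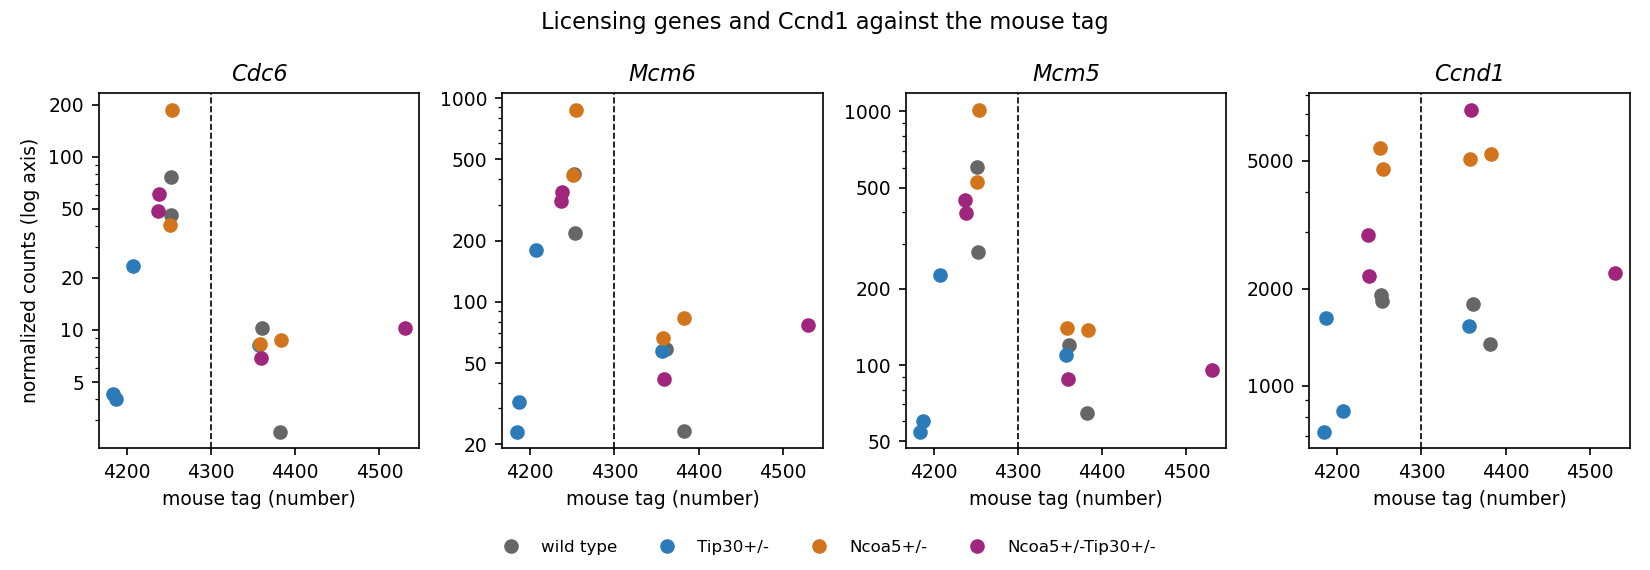
Normalized counts (log axis) of the licensing genes Cdc6, Mcm6 and Mcm5 and of Ccnd1 against the mouse tag, 1 point per liver, coloured by genotype, with a dashed line at 4300. The licensing genes are high in 7 livers with tags from 4207 to 4254, whatever the genotype, and Ccnd1 separates by the Ncoa5 label on both sides of the line.

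A fit with genotype and the tag range (under 4300 or not, added after the data were seen) called 11 of the 40 genes higher in the lower range, against 1.23% of all genes. These were the 9 licensing genes, Rrm1 and Mki67. Cdc6 was 5.23-fold higher (log2 2.39 ± 0.51, adjusted p = 0.0264), Mcm6 4.72-fold (log2 2.24 ± 0.53, adjusted p = 0.0458) and Cdt1 2.40-fold (log2 1.26 ± 0.22, adjusted p = 0.00987). Because the pattern was seen first and then fitted on the same livers, these values describe it and do not test it independently. Among the other cell cycle genes Wee1, Prim1, Pole, Uhrf1, Hells and Dtl were called higher. No cell type marker was called for the tag range, the median log2 difference being 0.85 for B and plasma cell markers, 0.35 for T and NK cell markers and -0.34 for hepatocyte markers, and their part in the licensing values was not tested.

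With the tag range in the fit, 9 of the 40 genes were called higher for the Ncoa5 deletion, against 5.5% of all genes. These were Ccnd1, Ccnb2, Plk1 and Top2a and, in addition, Mki67 (log2 1.21, adjusted p = 0.00408), Ccne1 (1.05, 0.00866), Cdt1 (0.83, 0.0231), Cdc20 (0.98, 0.0232) and E2f1 (0.91, 0.0362). Cdt1 and E2f1 were called for the deletion in no other alternative fit. Within the lower tags the log2 difference of Mcm6 was 1.82 and within the higher tags 0.49. For Cdt1 these were 0.97 and 0.45, for E2f1 1.18 and 0.37, and for Ccne1 0.83 and 1.31. The lower range held the low Tip30+/- 1 and 2, and no livers with the Ncoa5 deletion had tags that low.

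**Figure D4:**
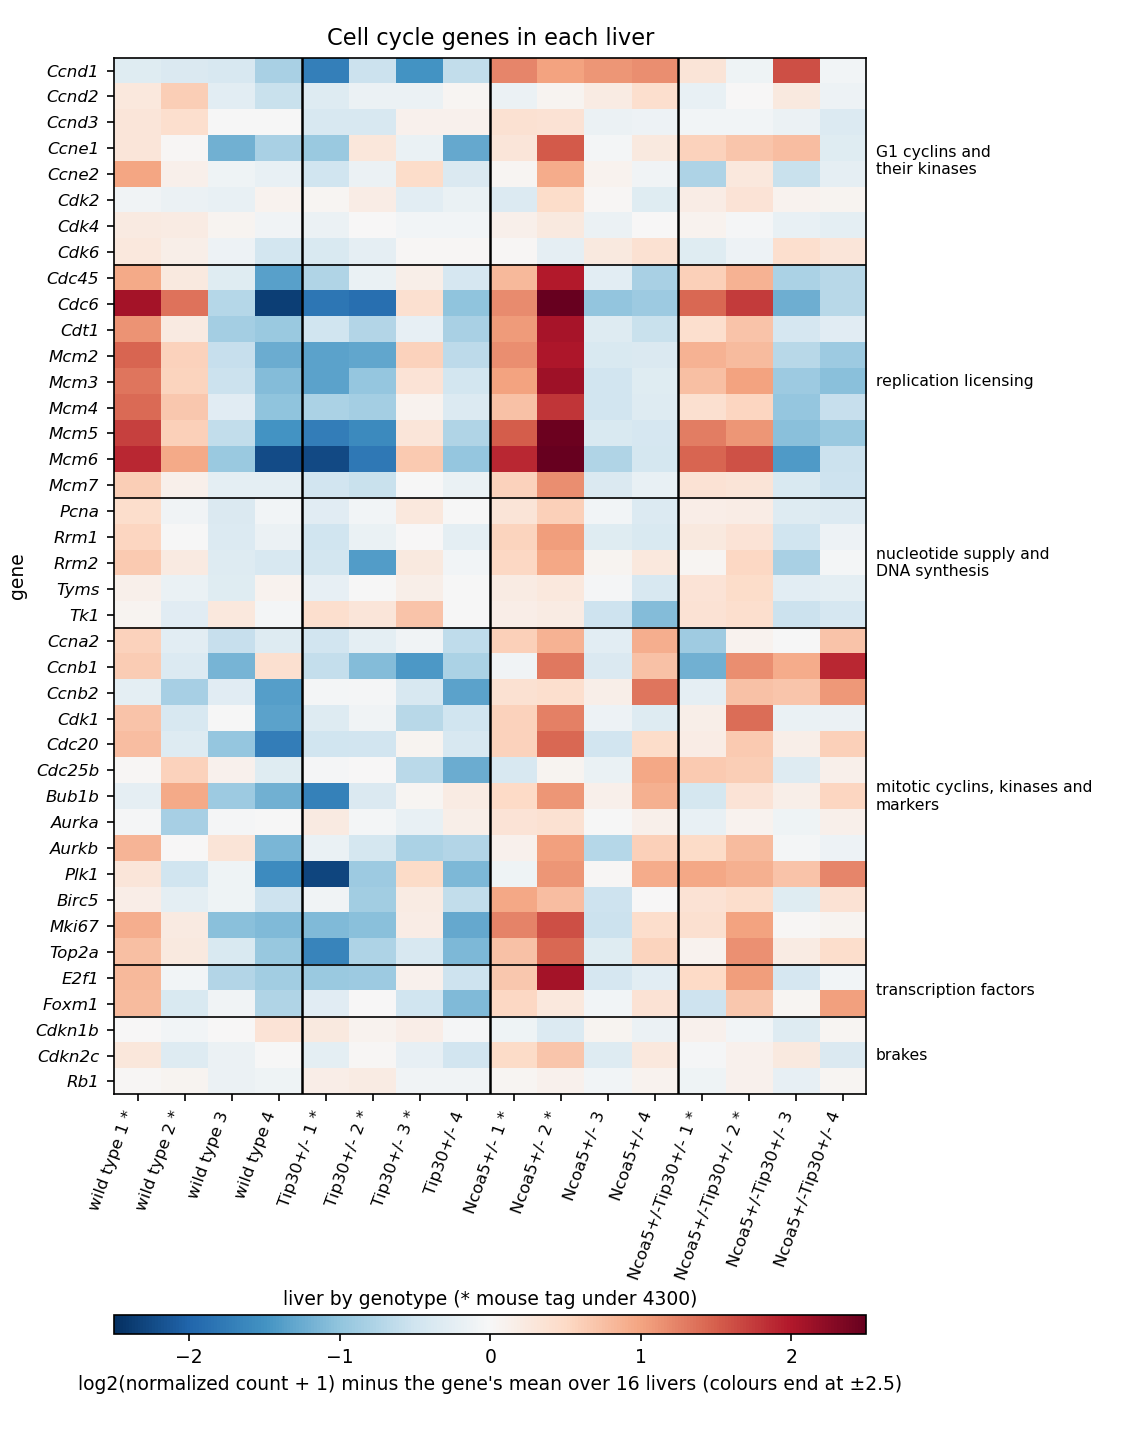
Heat map of the 40 genes (rows, grouped by role) in 16 livers (columns, grouped by genotype, a star marking mouse tags under 4300), as log2(normalized count + 1) minus the gene's mean over all livers. The licensing genes are highest in the same 7 livers, which come from all 4 genotypes (Cdt1 and Mcm7 in Tip30+/- 3 only near their mean). Ccnd1 is higher in all 8 livers with the Ncoa5 deletion, and the brakes vary less within genotypes than the licensing genes.

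The 200 bases before the RefSeq start of 3 licensing genes are shown because licensing genes are textbook E2F targets. The E2F motifs searched were TTTGGCGC, TTTCGCGC and TTTCCCGC, on both strands, and capitals mark matches to them and to CCAAT; in Mcm5 and Mcm6 matches on both strands overlap in a run. The bases are chr8:75109309-75109508 (plus strand) for Mcm5, chr1:128359706-128359905 (minus) for Mcm6 and chr11:98907951-98908150 (plus) for Cdc6. In GENCODE M21 Mcm5 spans chromosome 8, 75109569 to 75128439, and Mcm6 chromosome 1, 128331590 to 128359664, so their printed bases lie upstream of the gene. Cdc6 spans chromosome 11, 98907801 to 98923940, so its printed bases, which precede the RefSeq start, lie inside the GENCODE gene.
Mcm5: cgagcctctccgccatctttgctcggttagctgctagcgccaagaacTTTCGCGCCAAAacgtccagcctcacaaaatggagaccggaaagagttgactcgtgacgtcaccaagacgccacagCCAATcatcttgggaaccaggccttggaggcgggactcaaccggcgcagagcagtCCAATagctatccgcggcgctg
Mcm6: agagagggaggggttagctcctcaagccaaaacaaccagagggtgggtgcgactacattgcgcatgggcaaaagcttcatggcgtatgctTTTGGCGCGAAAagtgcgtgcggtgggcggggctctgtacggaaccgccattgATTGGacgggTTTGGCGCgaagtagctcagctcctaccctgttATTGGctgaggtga
Cdc6: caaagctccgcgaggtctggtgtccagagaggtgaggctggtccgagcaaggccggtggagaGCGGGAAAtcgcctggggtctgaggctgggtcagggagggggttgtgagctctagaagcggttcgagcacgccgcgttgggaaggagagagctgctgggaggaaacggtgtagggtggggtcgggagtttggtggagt
An E2F motif was in 6 of 8 licensing windows (Cdc6, Cdt1, Mcm3, Mcm5, Mcm6 and Mcm7), in 1 of 11 mitotic windows (Cdk1), in 1 of 5 G1 windows (Cdk2) and in 2.12% of all genes.

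Enzymes of nucleotide supply and DNA synthesis gave no call for the Ncoa5 deletion. Rrm1 and Rrm2 encode the subunits of ribonucleotide reductase. Rrm1 stood at 435, 296, 235 and 270 normalized counts in wild type, 442, 616, 240 and 230 in Ncoa5+/-, 210, 265, 300 and 252 in Tip30+/- and 354, 377, 210 and 271 in Ncoa5+/-Tip30+/-, following the licensing genes (log2 0.22 ± 0.20 for the Ncoa5 deletion). Rrm2 stood at 77.7, 57.8, 39.3 and 37.0 normalized counts in wild type, 71.0, 96.7, 52.1 and 59.4 in Ncoa5+/-, 35.8, 18.1, 58.3 and 47.1 in Tip30+/- and 51.2, 71.5, 27.7 and 47.4 in Ncoa5+/-Tip30+/-. All 4 groups overlapped for both subunits.

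Tk1, the salvage enzyme thymidine kinase, went the other way from most of the 40, with the lowest fitted difference of all (log2 -0.35 ± 0.20, adjusted p = 0.288). Tk1 stood at 1097, 857, 1256 and 1008 normalized counts in wild type, 1177, 1213, 729 and 494 in Ncoa5+/-, 1397, 1302, 1728 and 1042 in Tip30+/- and 1358, 1410, 719 and 786 in Ncoa5+/-Tip30+/-. Its 4 lowest values were Ncoa5+/- 3 and 4 and Ncoa5+/-Tip30+/- 3 and 4, all with tags above 4300. The sliding clamp gene Pcna and the thymidylate synthase gene Tyms had log2 differences of 0.05 ± 0.14 and 0.08 ± 0.13.

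Of the transcription factors, E2f1 stood at 282, 152, 96.4 and 87.7 normalized counts in wild type, 258, 682, 120 and 133 in Ncoa5+/-, 84.4, 85.4, 174 and 112 in Tip30+/- and 227, 331, 120 and 154 in Ncoa5+/-Tip30+/-. Of its 7 highest livers 6 were those of the licensing genes, with Ncoa5+/-Tip30+/- 4 (154) just above wild type 2 (152), and the difference for the Ncoa5 deletion was log2 0.78 ± 0.37 (adjusted p = 0.201). Foxm1, the mitotic activator, stood at 36.8, 15.8, 19.7 and 12.0 normalized counts in wild type, 30.4, 25.5, 19.8 and 27.3 in Ncoa5+/-, 17.1, 21.1, 14.6 and 9.22 in Tip30+/- and 14.3, 33.9, 21.7 and 43.3 in Ncoa5+/-Tip30+/- (log2 0.57 ± 0.27, adjusted p = 0.181). All genotypes overlapped for both factors.

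The brakes of the set did not share the rise of Cdkn1a. Cdkn1b, encoding the inhibitor p27, stood at 687, 650, 689 and 864 normalized counts in wild type, 628, 538, 712 and 613 in Ncoa5+/-, 808, 727, 763 and 665 in Tip30+/- and 732, 646, 543 and 705 in Ncoa5+/-Tip30+/-. Its difference for the Ncoa5 deletion was log2 -0.20 ± 0.09 (fold 0.873, 95% confidence interval 0.771 to 0.990, adjusted p = 0.157). Cdkn2c, encoding p18, an inhibitor of Cdk4 and Cdk6, stood at 250, 164, 186 and 204 normalized counts in wild type, 287, 332, 163 and 247 in Ncoa5+/-, 172, 208, 179 and 147 in Tip30+/- and 200, 222, 244 and 159 in Ncoa5+/-Tip30+/- (log2 0.27 ± 0.14, adjusted p = 0.239). Rb1, the retinoblastoma gene, stood at 136, 140, 120 and 124 normalized counts in wild type, 137, 144, 127 and 141 in Ncoa5+/-, 150, 154, 125 and 125 in Tip30+/- and 124, 143, 115 and 138 in Ncoa5+/-Tip30+/-. Rb1 was the most even of the 40 genes, with a fold of 0.997 (95% confidence interval 0.872 to 1.14).

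Of the pairwise comparisons with wild type, which share its 4 livers, none gave a call among the 40 genes. For Ncoa5+/- the count was 0, where 0.557% of all genes were called, with 5 genes at an unadjusted p under 0.05 by limma (Ccne1, Cdc20, Aurka, Ccnb2 and Ccnd1, all higher), or 12.5% of the 40 against 10.2% of all genes. EdgeR called 0, against 0.531% of all genes, and DESeq2 called 1, Ccnd1, against 1.68%. In Ncoa5+/- livers Ccnd1 and Ccnb2 lay wholly above wild type, as did 3.25% of all genes.

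Tip30+/- livers gave 0 calls in the 40 genes by limma, edgeR and DESeq2, where limma and edgeR each called 0.0131% of all genes and DESeq2 0.282%. By limma 1 gene had an unadjusted p under 0.05, or 2.5% of the 40 against 7.34% of all genes. This was Top2a, at 0.533 of wild type (log2 -0.91 ± 0.40, adjusted p = 0.658). The fitted difference was above 0 for 8 of the 40, and its median was -0.28 against 0.01 for all genes.

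For Ncoa5+/-Tip30+/- against wild type the count was 0, where 2.67% of all genes were called, with 5 genes at an unadjusted p under 0.05 (Cdc20, Plk1, Ccnb2 and Ccnd1 higher, Ccnd3 lower), or 12.5% of the 40 against 22.0% of all genes. EdgeR called 0, against 2.4% of all genes, and DESeq2 called 2, Ccnb2 and Ccnd1, against 6.84%. Plk1, Ccnb2 and Ccnd1 lay wholly above wild type, as did 4.7% of all genes. Against Tip30+/- livers 8 of the 40 had an unadjusted p under 0.05, a smaller share than the 23.2% of all genes. In that comparison 5 genes lay wholly higher in Ncoa5+/-Tip30+/- (Cdc20, Aurkb, Top2a, Plk1 and Ccnd1), as did 7.1% of all genes.

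Whether the Ncoa5 deletion acted differently with and without the Tip30 deletion was tested as an interaction. Limma called 0 of the 40 genes and 0% of all genes, and no gene of the 40 had an unadjusted p under 0.05. EdgeR and DESeq2 also called 0 of the 40, and 0% and 0.00655% of all genes. For Ccnd1 the interaction was log2 -0.06 (95% confidence interval -1.08 to 0.97), and for Plk1 0.95 (-0.58 to 2.48). The Plk1 interval holds a difference as large as that for the deletion itself (1.43), while the Ccnd1 interval does not reach 1.56 in either direction.

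The other cell cycle genes gave a fuller count of the pathway. Of 119 such genes 108 were tested, and 8 rose and 2 fell for the Ncoa5 deletion, with a median log2 difference of 0.13. That is 9.26% of the list against 7.89% of all genes, and 6 of 103 (5.83%) outside the p53 list. Of the 8, 4 are p53 targets as well: Cdkn1a, the anti-proliferative gene Btg2 (2.89-fold), the cyclin G1 gene Ccng1 (3.28-fold) and the spindle gene Psrc1 (15.8-fold). The others that rose were Pkmyt1, an inhibitory kinase of Cdk1 (2.74-fold, adjusted p = 0.0421), and the mitotic genes Ube2c (2.12-fold, 0.0437), Kif23 (1.90-fold, 0.0471) and Nusap1 (1.58-fold, 0.0474).

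The pocket protein gene Rbl2, whose product p130 represses E2F targets in resting cells, fell to 0.713 of its level without the deletion (adjusted p = 0.0347) and E2f5, a repressive E2F, to 0.761 (0.0332). Kif23, Nusap1, Rbl2 and E2f5 fall outside the 6 largest changes that were to be named and were added after their values were seen. None of 39 other replication genes was called for the Ncoa5 deletion by limma (smallest adjusted p = 0.0749). In Ncoa5+/-Tip30+/- livers against wild type E2f3, an activating E2F, fell to 0.647 (adjusted p = 0.0455).

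Ncoa5+/- 2 was the highest liver for 23 of the 40 genes, against 5.16% of all genes tested. Wild type 4 and Tip30+/- 1 were the lowest livers for 10 genes each, against 8.52% and 4.45% of all genes. Without Ncoa5+/- 2 the genes called for the Ncoa5 deletion were Ccnd1 and Ccnb2, and without wild type 4 they were the same 2. The share of all genes called fell as well, from 7.89% to 5.13% without Ncoa5+/- 2 and to 4.34% without wild type 4.

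Within the 8 livers labelled with the Ncoa5 deletion no correlation of the 40 genes with Cdkn1a passed adjustment (0 of 40 at an adjusted p under 0.05, exact permutation tests over pairings of 8 livers, smallest adjusted p = 0.989). Ccnd1 had the highest Pearson r, 0.61 (unadjusted exact p = 0.113, Spearman rho 0.64, p = 0.0962), and r was 0.13 without the 2 livers farthest from the median of Cdkn1a. In the 8 livers without the deletion 0 of 40 passed (smallest adjusted p = 0.379). The median r over the 40 genes was -0.09 with the deletion (-0.07 without the 2 farthest livers). In the livers without the deletion it was 0.47, but -0.41 without the 2 farthest livers, with r below 0 for 27 of the 40. The sign thus rests on those 2 livers, wild type 1 and wild type 2. Both were low in Zhx2 and had tags under 4300. These genes vary together, and the medians are descriptions.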

How the data were processed

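The deposited table holds, per the labels, a signal from the authors' DESeq2 run, in which each library's gene counts were scaled by that library's size factor, called normalized counts here. Per the submitters' processing notes the tools were Trimmomatic 0.36, STAR 2.6.0c, GRCm38 and DESeq2 1.28.1. Neither the counting program nor the annotation release is given in the sources used here. Library size factors ran from 0.840 to 1.17, and every value was a whole multiple of a step per library (tolerance 0.001), so whole reads could be recovered.

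Genes with a mean of at least 10 were tested with limma 3.58.1 (trend, robust) in R 4.3.3 on log2(value + 1), fitting 4 genotype means to 16 libraries, with 2-sided p-values adjusted by Benjamini-Hochberg across all genes within each of 6 comparisons. Fold changes are powers of 2 of fitted log2 differences, which understate changes of low genes. Values in every liver are given for the genes called and for the 3 smallest p in each role (Ncoa5 deletion over both Tip30 genotypes), and of other cell cycle genes up to 6 called per comparison are named. The members and gene lists were chosen with earlier results of these data known. Alternatives were edgeR 4.0.16 and DESeq2 1.42.0 on recovered reads, a pseudocount of 0.5 or 5, a mean of 50 or no filter, other scalings, no robust fit, a tag covariate, the groups alone, and livers left out. The statistical steps were tested on simulated data. The fit of the tag itself and the values within tag ranges were chosen after seeing the data. No 2 libraries held the same counts within sampling noise.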

Additional observations from a re-analysis of the deposited data

Results flagged for a closer look

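Dixon's test at the 95% level was applied to 164 groups of 4 livers (the 40 genes and Cdkn1a in each genotype). It used normalized counts and not their log2, and 9 groups held a liver far from the other 3. Chance gives 1 in 20 for independent groups of normally distributed values. These genes vary together and the distribution of their counts was not checked, so the 9 are a description. In Ncoa5+/-Tip30+/- 3 Ccnd1 was at 7208 normalized counts, against 2189 to 2938 in the rest of its group. In Ncoa5+/- 2 Ccne1 was at 136, against 44.8 to 57.4, and Ccne2 at 79.4, against 39.0 to 43.7. Ccnb2 was at 50.6 in Ncoa5+/- 4, against 21.9 to 26.5. Cdk1 was at 85.6 in Ncoa5+/-Tip30+/- 2, against 28.6 to 35.7. In Tip30+/- 3 Cdc20 was at 47.6, against 31.6 to 33.8, and Mki67 at 107, against 37.9 to 45.2. Low livers were wild type 2 for Aurka, at 68.4 against 120 to 122, and Ncoa5+/-Tip30+/- 3 for Birc5, at 24.3 against 39.2 to 41.4.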

How the results depend on the processing

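Of the 5 called differences of named genes, 108 of 126 alternative fits kept the call, 18 lost it and 0 turned the sign. The number of the 40 genes called for the Ncoa5 deletion over both Tip30 genotypes was 4 (7.89% of all genes called). It became 7 with DESeq2 (11.8% of all genes) and 9 with the mouse tag as a covariate (12.7%). With a mean of at least 50 it became 2 (8.94%), and Plk1 and Ccnb2 are then not tested. Without the 4 livers low in Zhx2 it stayed at 4 (3.94%), with Ccne1 and Cdc20 called in place of Ccnb2 and Plk1. With a liver left out it ran from 2 to 7. It was 2 without wild type 4 (4.34%), Ncoa5+/- 2 (5.13%) or Ncoa5+/- 4 (4.61%), and 7 without Ncoa5+/- 3 (9.18%). For Ncoa5+/-Tip30+/- against Tip30+/- the number was 1 (3.07% of all genes called). It became 4 with DESeq2 (7.32%), 2 with a pseudocount of 5 (3.24%) and 5 with the tag covariate (8.81%). Without the 4 livers low in Zhx2 it became 0 (2.75%). With a liver left out it was 0 to 1, and 0 without Tip30+/- 1 (1.21%). The 1 gene was not Ccnd1 without Tip30+/- 3 (Plk1, 1.17%) or Ncoa5+/-Tip30+/- 1 (Ccnb1, 2.01%). Nor was it Ccnd1 with no filter (Plk1, 1.27%) or with the groups fitted alone (Top2a, 3.74%). For Ncoa5+/- against wild type the number was 0 (0.557% of all genes called). It became 1 with DESeq2 (1.68%), upper-quartile scaling (0.563%), no robust fit (0.577%) and the groups fitted alone (0.367%). For Ncoa5+/-Tip30+/- against wild type it was 0 (2.67%), and became 2 with DESeq2 (6.84%). Where not stated, the cause was not tested. Depth limits genes such as Plk1, at 1.71 to 29.9 normalized counts. No paired analysis was possible because the labels give no shared replicate numbers.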
